A study of Saccharomyces cerevisiae with 3 samples.

Results

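The 10 yeast genes described here act at the last steps of alcoholic fermentation or are related to them. They include the pyruvate decarboxylase genes PDC1, PDC5 and PDC6 and their regulator PDC2. The others are the alcohol dehydrogenase genes ADH1 to ADH5 and the aldehyde dehydrogenase gene ALD6. All were taken by name, and 10 of 10 were found among 6002 protein-coding genes of the R64 annotation. The measurement is DNase-seq, in which stretches of chromatin that DNase I cuts often in nuclei are listed as hypersensitive sites. For each gene, every listed site from 1000 bp upstream of the start codon to the stop codon was read, together with the share of coding sequence that lay under sites, called coding coverage below. The genes were selected on their role and on the sites and coding coverage in these same 3 lists, which earlier work on the data had shown. Their values are therefore descriptions and carry no test.

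Budding yeast growing on glucose turns pyruvate into acetaldehyde with pyruvate decarboxylase, and acetaldehyde into ethanol with alcohol dehydrogenase, which restores the NAD+ that glycolysis uses. Pdc1 and Adh1 carry most of this flow. Adh2 runs the reverse reaction, from ethanol to acetaldehyde, and its gene is repressed while glucose is present and switched on by Adr1 and Cat8 when glucose is gone. ALD6 encodes the main cytosolic enzyme that turns acetaldehyde into acetate.

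The series has 3 libraries, each from 1 strain of the BY4741 background (mating type a). The groups are the wild type parent, a strain deleted for SBA1 (sba1Δ), the gene of the Hsp90 co-chaperone p23, and a strain deleted for GCN5 (gcn5Δ), the gene of the SAGA histone acetyltransferase. The deletion isolates came from a commercial collection. All cultures were grown in rich medium with glucose (YPD) to the same optical density, so glucose, which represses ADH2, was supplied to all 3. The stated purpose of the series is the joint effect of p23 and Gcn5 on open chromatin.

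There is 1 library per strain, so a difference between strains has no replicate check and no test was made. Wild type had 3260 sites, sba1Δ 2439 and gcn5Δ 3062. Nuclear sites had a median width of 247 bp, 350 bp and 261 bp, so wider sites are a feature of the whole sba1Δ list. Read depth is unknown, and a gene without a site is only not listed. Coding coverage of SBA1 was 0% in wild type, 1.84% in sba1Δ and 0% in gcn5Δ, where the sba1Δ value is 12 bp at the edge of an upstream site, inside the gene labelled as deleted. GCN5 stood at 0% in wild type, 29.4% in sba1Δ and 0% in gcn5Δ. With 0% in wild type for both genes, these values check the labels little. Positions are 1-based on sacCer3. Site scores are the authors' and have no stated scale, so a score serves only to place a site within its own list.

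Of 16 wild-type sites at these genes, 12 began upstream of the start codon. The window takes in 1000 bp there and ends at the stop codon, and no share over all genes is given for that count. At least 50% of coding sequence was covered in 0 of the 10, against 5.46% of all genes. Coding coverage was 26.4% for PDC5, 24.0% for ALD6, 17.7% for PDC1, 16.0% for ADH1 and 9.28% for PDC6, and 0% for PDC2, ADH2, ADH3, ADH4 and ADH5. The median over the 10 genes was 4.64% and the mean 9.34%, while over all genes the median was 0% and the mean 8.08%. A site in the 1000 bp upstream was listed for 8 of the 10, all but ADH2 and ADH4, where 50.8% of all genes had one. Some coding sequence was covered in 5 of the 10, against 33.6% of all genes. A site lay across the start of the coding sequence in 4 of the 10 (PDC1, PDC5, ADH1 and ALD6), against 19.6% of all genes.

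Sites of the sba1Δ list reached through the coding sequences of the major fermentation genes and of ADH2. Coding coverage was 100% for ADH1, 98.5% for PDC1, 81.2% for ADH2, 71.9% for ALD6, 46.0% for PDC6, 38.1% for ADH3 and 34.4% for PDC5, and 0% for PDC2, ADH4 and ADH5. At least 50% was covered in 4 of the 10 genes, against 0 in wild type, where the background over all genes was 12.0% in sba1Δ and 5.46% in wild type. Coverage was higher than in wild type by at least 10 percentage points in 6 genes (PDC1, PDC6, ADH1, ADH2, ADH3 and ALD6), where 17.3% of all genes passed that mark. It was lower by that much in 0 of the 10, against 8.05% of all genes. Some coding sequence was covered in 7 of the 10, where 32.2% of all genes had any. The median over the 10 was 42.1% and the mean 47.0%, while over all genes the median was 0% and the mean 13.7%. With each site set to 250 bp around its midpoint, which takes width away by construction, PDC1 and ALD6 stood -9.16 and -16.6 points from wild type. That setting left ADH2 at 38.0% and ADH1 at 0%.

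The gcn5Δ list lay nearer to wild type. Coding coverage was 51.3% for ADH1, 34.1% for PDC1, 24.8% for ALD6, 15.8% for PDC6, 2.90% for PDC5 and 0.532% for ADH3, and 0% for PDC2, ADH2, ADH4 and ADH5. ADH1 alone of the 10 had at least 50% covered, where 6.05% of all genes did. Coverage was higher than in wild type by at least 10 points for PDC1 and ADH1, with a background of 5.01%, and lower by at least 10 points for PDC5, with a background of 4.70%. Any coverage was listed for 6 of the 10, with a background of 31.5%. The call at PDC1 was lost with equal numbers of best-scored sites, at 8.51 points, and the call at PDC5 with the better-scored 50% of each list, at -6.32 points. The median over the 10 was 1.71% and the mean 12.9%, against a mean over all genes of 8.24%. Both deletion strains were compared with the same wild-type library, so their differences from it are not independent.

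**Figure D1:**
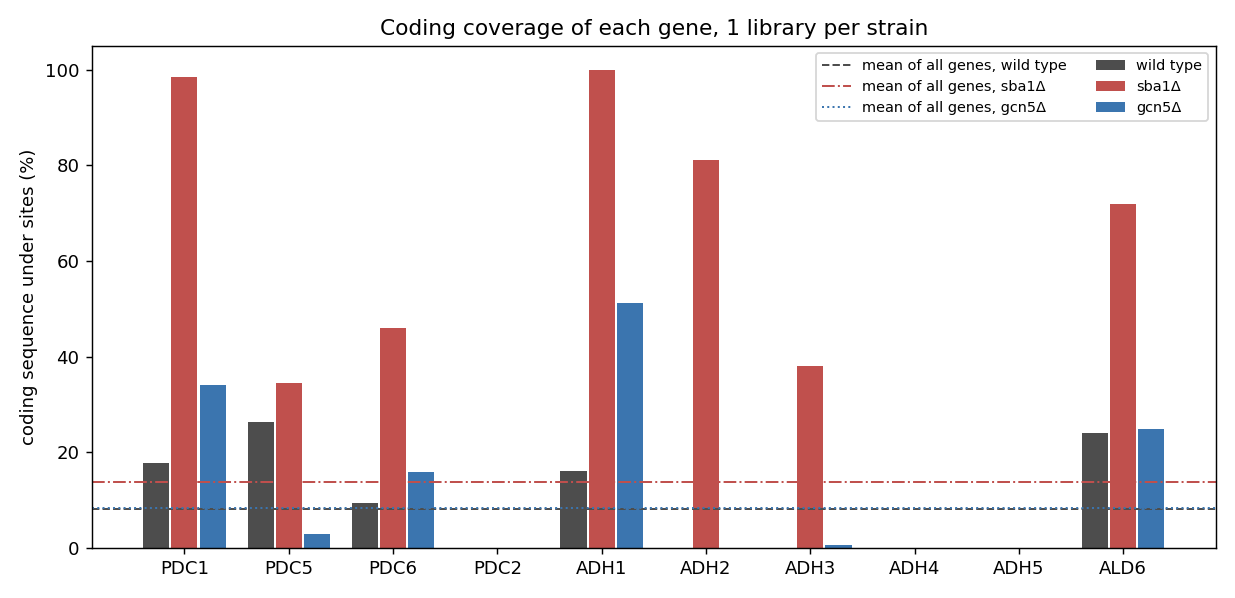
Coding sequence under listed sites (percent, vertical axis) for the 10 genes, with 1 bar per strain and lines at the mean over all 6002 genes in each list. The sba1Δ list bars reach 100% at ADH1, 98.5% at PDC1 and 81.2% at ADH2, while PDC2, ADH4 and ADH5 have no bar in any strain.

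ADH1 and ADH2 encode closely related enzymes with opposite roles, and their coding sequences have the same length of 1047 bp. ADH1 (YOL086C, chromosome XV 159548 to 160594, minus strand) had the whole 1000 bp upstream under sites in all 3 lists. ADH2 (YMR303C, chromosome XIII 873291 to 874337, minus strand) had no upstream or coding site in wild type or in gcn5Δ. Of its upstream window, 194 bp were covered in sba1Δ. In 2 of the 3 lists the paralogs thus stood at opposite ends, with the fermentative gene open upstream and the repressed gene without a site.

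The wild-type site at ADH1 was 2034 bp wide, at 160427 to 162460, and ended at coding base 168. It filled the gap to PHM7, the next gene but one, which is read in the other direction. Its score of 11.8 was above 98.9% of the wild-type list. The gcn5Δ list had a site of nearly the same extent, 160402 to 162429, which ended at coding base 193, and a separate one of 344 bp over coding bases 419 to 762. A single sba1Δ site of 3185 bp ran from 159297 to 162481, through the whole gene and 251 bp past its stop codon. Its upstream edge lay 1887 bp before the start codon, close to the 1866 bp of wild type and the 1835 bp of gcn5Δ. The lists therefore shared the upstream edge and differed in how far the open stretch ran into and beyond the gene.

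At ADH2 the sba1Δ list had 3 sites. A site of 297 bp at 874167 to 874463 began 126 bp upstream of the start codon and ended at coding base 171, and its score of 2.49 was above 62.0% of those in the list. A wider site of 679 bp at 873306 to 873984 covered coding bases 354 to 1032, with a score of 3.15, above 76.7% of the list. The last was 68 bp wide, from 568 to 501 bp upstream, and its score of 1.89 was above 4.67% of the list, near the lowest score listed there, 1.86. A stretch of 182 coding bases separated the pair of coding sites. Within the sba1Δ list, ADH2 thus had sites across the start codon and in the gene body, where ADH1 was covered throughout. It lacked the long upstream block that ADH1 had.

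ADH1 and ADH2 are similar enough in sequence that short reads from one may be placed on the other. The treatment of reads matching several places is a step not given in the sources used here. The part of this in the ADH2 sites was not tested. Counting positions from the start codon, all 850 covered coding bases of ADH2 in sba1Δ fell at positions that were also covered in ADH1. This follows from ADH1 being covered throughout. In wild type, 168 coding bases of ADH1 were covered and 0 of ADH2. In gcn5Δ the numbers were 537 and 0, and what these numbers mean for shared reads was not tested.

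The pattern of ADH2, no coding base covered in wild type and gcn5Δ and at least 50% in sba1Δ, was met by 154 of all genes, or 2.57%. By the sum of absolute differences in coding coverage over the 3 lists, among 4852 other genes of at least 600 bp, the nearest to ADH2 were SCS2 (a membrane protein of the endoplasmic reticulum), TPC1 (the mitochondrial carrier of thiamine pyrophosphate), RPE1 (an epimerase of the pentose phosphate pathway), DSC3 (a subunit of a Golgi ubiquitin ligase) and MDM31 (a mitochondrial inner membrane protein). All of these stood at 0% in wild type and in gcn5Δ. Among sba1Δ values, SCS2 was covered at 81.8%, TPC1 at 79.8%, RPE1 at 82.7%, DSC3 at 79.6% and MDM31 at 82.8%.

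**Figure D2:**
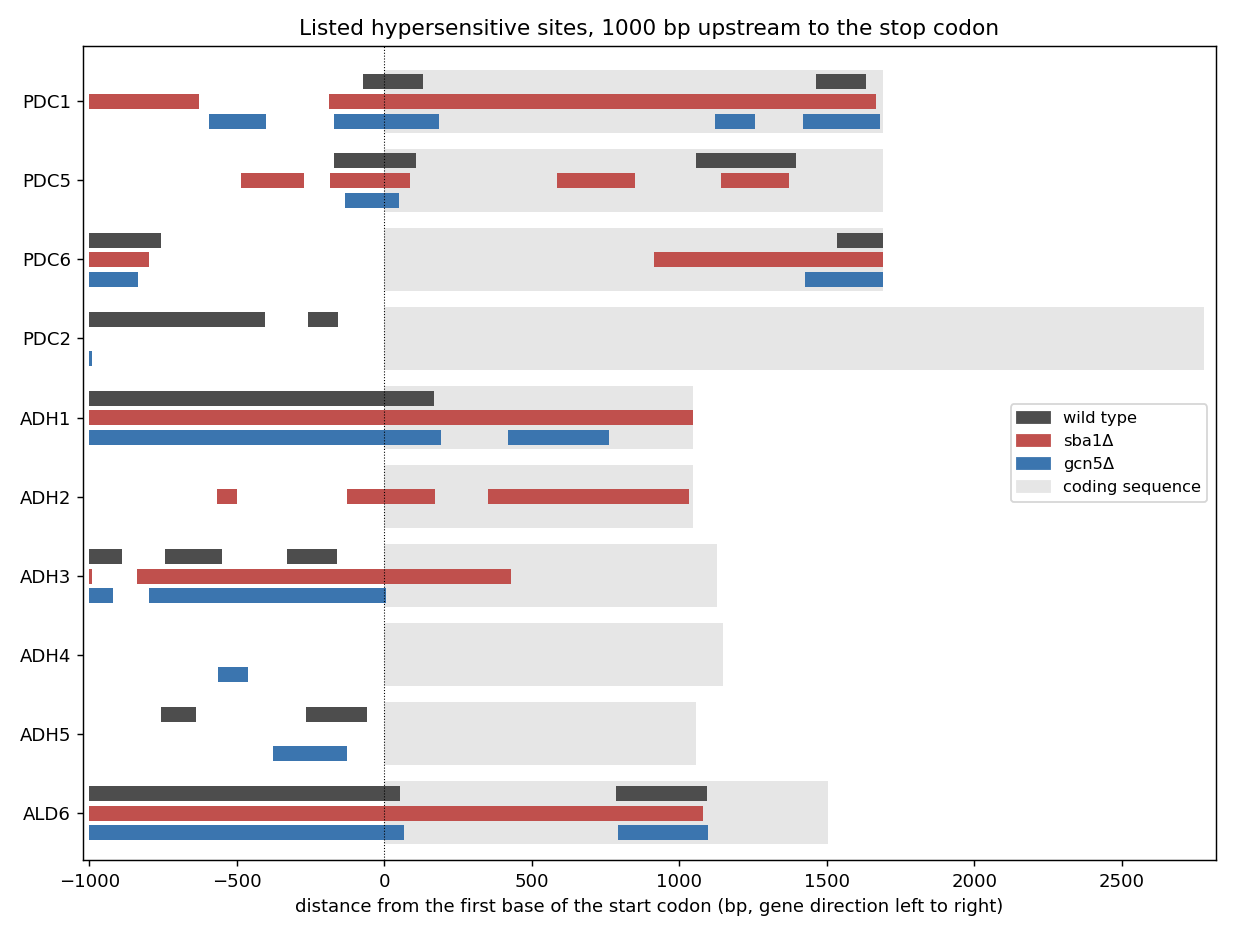
Listed sites at each gene, clipped to the window from 1000 bp upstream to the stop codon, against distance in bp from the first base of the start codon, with coding sequence in grey and 1 bar row per strain. ADH1 and ALD6 are covered across the upstream window in all 3 strains, ADH2 has sites in sba1Δ only, and the PDC1 site of 1853 bp in sba1Δ spans what are separate sites at both ends of the gene in the other strains.

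The structural pyruvate decarboxylase genes all have 1692 bp of coding sequence. PDC1 (YLR044C, chromosome XII 232390 to 234081, minus strand) is the main isoform gene in glucose. PDC5 (YLR134W, chromosome XII 410723 to 412414, plus strand) encodes an isoform whose gene is expressed more strongly when PDC1 is missing or thiamine is short. PDC6 (YGR087C, chromosome VII 651290 to 652981, minus strand) is a minor isoform gene.

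At PDC1, wild type had a site of 201 bp across the start codon, at 233952 to 234152, and one of 169 bp near the 3′ end, over coding bases 1466 to 1634. The 1335 bases between them held no site. The gcn5Δ list had sites at both of these places, 357 bp and 258 bp wide, a further one of 134 bp over coding bases 1123 to 1256, and one of 193 bp upstream. A single sba1Δ site of 1853 bp, at 232415 to 234267, ran from 186 bp upstream to coding base 1667 and so joined both ends. Its score of 2.89 was above 72.1% of the list, well below the standing of the ADH1 site despite the similar coverage. A second sba1Δ site, 724 bp wide at 234712 to 235435, covered the far upstream region and the end of the neighbouring gene STU2, a microtubule-binding protein gene, where the other lists had none.

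PDC5 differed from PDC1 in that its coverage stayed in pieces. All 3 lists had a site across its start codon, 278 bp wide in wild type, 271 bp in sba1Δ and 182 bp in gcn5Δ. A site towards the 3′ end was listed in wild type, over coding bases 1059 to 1397, and in sba1Δ, over coding bases 1142 to 1373, but not in gcn5Δ. The sba1Δ list had further sites over coding bases 588 to 851 and from 486 to 272 bp upstream. Coding coverage of PDC5 was therefore 26.4% in wild type, 34.4% in sba1Δ and 2.90% in gcn5Δ. The sba1Δ value was 8.04 points above wild type, short of the mark of 10 points, and with the better-scored 50% of each list PDC5 stood at 6.32% in wild type and 0% in both deletion strains. The wild-type sites scored above 50.4% and 43.5% of their list, in the middle of it.

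PDC6 had no site across its start codon in any list, and the 5′ part of its coding sequence, of 3 equal parts, stood at 0% in all lists. Its coverage came from a high-scored site that also lies over the start of the downstream gene PIL1, which encodes a component of eisosomes. That site entered PDC6 across its stop codon and reached back to coding base 1536 in wild type, 1426 in gcn5Δ and 915 in sba1Δ. It was 1046 bp, 1100 bp and 1646 bp wide, and scored above 96.9%, 95.8% and 93.9% of the lists. Coding coverage was accordingly 9.28%, 15.8% and 46.0%. An upstream site lay towards the catalase gene CTT1, in the gap between the genes in wild type and gcn5Δ and running into the CTT1 coding sequence in sba1Δ. Its nearer edge was 759 bp before the PDC6 start codon in wild type, 835 bp in gcn5Δ and 800 bp in sba1Δ, and its width was 403 bp, 482 bp and 956 bp.

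Reads could likewise be shared among the related PDC genes, and this was not tested. Counted from the start codon, PDC1 and PDC5 had 107 covered positions in common in wild type, all at the 5′ end, and 339 covered in PDC5 alone. In gcn5Δ 49 positions were common, which is all that was covered in PDC5, while PDC1 had 577. PDC5 and PDC6 had 0 positions in common in wild type and in gcn5Δ, and 232 in sba1Δ. Of the covered PDC6 positions, 99 of 157 were also covered in PDC1 in wild type, 254 of 267 in gcn5Δ and 753 of 778 in sba1Δ. The sba1Δ number follows from PDC1 being covered there from its first coding base to coding base 1667.

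PDC2 (YDR081C, chromosome IV 607304 to 610081, minus strand) encodes the transcription factor needed for expression of PDC1 and PDC5. No base of its 2778 bp coding sequence was under a site in any list. Upstream, wild type had a site of 100 bp from 258 to 159 bp before the start codon, with a score of 1.96 above 15.0% of the list. A wide one of 1476 bp, at 610486 to 611961, covered most of the divergent neighbour STN1, a telomere-capping gene. The sba1Δ list had no site in the 1000 bp upstream, and gcn5Δ had 8 bp of one, the edge of a site of 811 bp within STN1. Coding coverage of STN1 was 97.0% in wild type, 26.7% in sba1Δ and 54.6% in gcn5Δ. The stretch upstream of the regulator gene, most of it STN1 coding sequence, thus had less listed openness in both deletion strains than in wild type.

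ALD6 (YPL061W, chromosome XVI 432588 to 434090, plus strand) resembled ADH1. The 1000 bp upstream were under sites in all 3 lists. The upstream site ran from 431466 to 432639 in wild type and from 431463 to 432654 in gcn5Δ, ending at coding bases 52 and 67. Both strains also had a separate site inside the gene, over coding bases 785 to 1093 in wild type and 793 to 1098 in gcn5Δ. A single sba1Δ site of 2454 bp, at 431214 to 433667, filled the gap between them and ended at coding base 1080. That is near the ends of the inner site in the other strains. Scores of the upstream sites were above 98.1% of the list in wild type, 98.2% in sba1Δ and 98.7% in gcn5Δ.

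ADH3 (YMR083W, chromosome XIII 434788 to 435915, plus strand), which encodes the mitochondrial alcohol dehydrogenase, was open upstream in all 3 lists. In wild type this came from 3 sites of 288 bp, 194 bp and 168 bp, which covered 474 bp of the window, and none reached the coding sequence. Those of 194 bp and 168 bp scored low, above 12.9% and 14.0% of the list. With the better-scored 50% of each list, 112 bp of the window stayed covered in wild type, 837 bp in sba1Δ and 878 bp in gcn5Δ. In gcn5Δ a site of 804 bp, at 433990 to 434793, spanned both of the nearer wild-type sites and ended at coding base 6. In sba1Δ the site there was 1267 bp wide, at 433951 to 435217, and ended at coding base 430. Upstream coverage was similar in the deletion strains, 846 bp in sba1Δ and 878 bp in gcn5Δ, and coding coverage was not, at 38.1% and 0.532%.

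ADH4 and ADH5 were the least covered. ADH4 (YGL256W, chromosome VII 15159 to 16307, plus strand), whose gene is induced when zinc is short, had a single site in all, 104 bp wide, from 565 to 462 bp upstream in gcn5Δ. ADH5 (YBR145W, chromosome II 533762 to 534817, plus strand), a minor isoform gene, had 2 upstream sites in wild type, of 120 bp and 204 bp. The gcn5Δ list had 1 of 252 bp, which shared 138 bp with the nearer of these, and sba1Δ had none. All of these scored low, above 13.6% to 21.5% of their lists.

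Upstream openness moved both ways among the genes. In sba1Δ, PDC1 had 556 bp of the window under sites against 71 bp in wild type, and PDC2 had 0 bp against 696 bp. Of those 696 bp, 596 bp came from the wide wild-type site over STN1. The mean absolute difference from wild type was 23.4 points upstream and 37.7 points in the coding sequence in sba1Δ, and 16.8 and 8.30 points in gcn5Δ. These means were not computed over all genes, so they have no background. A mean of 398 bp of the 1000 bp upstream was under sites in wild type, 420 bp in sba1Δ and 391 bp in gcn5Δ, against 191 bp, 236 bp and 208 bp over all genes. The number of the 10 genes with a site in the 1000 bp upstream was 8 in wild type, 7 in sba1Δ and 9 in gcn5Δ, against backgrounds of 50.8%, 46.1% and 51.4%. With SBA1 deleted, ADH2 gained an upstream site, which 11.9% of all genes did, and PDC2 and ADH5 lost theirs, which 16.7% did. In gcn5Δ ADH4 gained one, with a background of 7.00%, and none lost it, with a background of 6.40%. PDC2 kept its call there only through 8 bp at the edge of the site within STN1. With the window ended at the neighbouring gene, the number with an upstream site was 8 in wild type and 8 in gcn5Δ. For that window the share of all genes is not given. A site across the start of the coding sequence was listed for 6 of the 10 in sba1Δ and 5 in gcn5Δ, against 21.4% and 18.8% of all genes. A site across its end was listed for PDC6 in all 3 strains and for ADH1 in sba1Δ, so for 1 of the 10 in wild type, 2 in sba1Δ and 1 in gcn5Δ, against 10.1%, 12.6% and 10.0% of all genes.

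Each coding sequence was divided into 3 equal parts, from start to stop codon. The higher coverage of sba1Δ lay in all of them. Mean coverage over the 10 genes in the 5′, middle and 3′ part was 10.1%, 5.59% and 12.4% in wild type, 46.4%, 49.8% and 44.8% in sba1Δ, and 11.2%, 12.3% and 15.3% in gcn5Δ. Over all genes it was highest at the 5′ end, with 16.0%, 13.1% and 12.1% in sba1Δ. Single genes differed in which end was covered. In sba1Δ, ADH3 was covered at 100% in its 5′ part and 0% in its 3′ part, and PDC6 at 0% and 100%. ADH1 and PDC1 were covered at 100% in both the 5′ and the middle part.

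**Figure D3:**
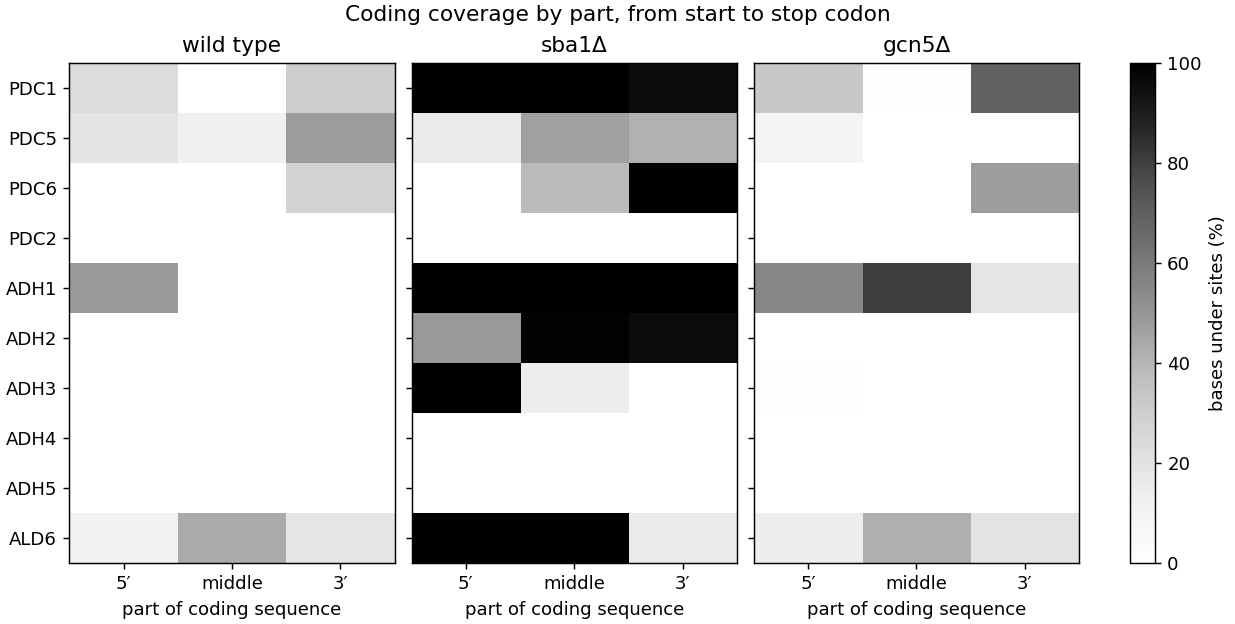
Share of bases under sites (grey scale, 0 to 100%) in the 5′, middle and 3′ part of each coding sequence (3 equal parts), with 1 panel per strain. In sba1Δ ADH1 is dark throughout, PDC6 darkens towards its stop codon and ADH3 towards its start codon.

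The nearest neighbours of these genes were read in the same way. The 20 nearest protein-coding neighbours, 1 on each side, had a mean coding coverage of 18.5% in wild type, 23.0% in sba1Δ and 17.3% in gcn5Δ. Of these, 3 were higher by at least 10 points in sba1Δ and 2 lower, near the 17.3% and 8.05% of all genes. The higher ones were STU2 next to PDC1, at 0% and 15.0%, MHF1 next to ADH1, at 0% and 54.6%, and YMR082C, which lies 2662 bp from ADH3, at 0% and 100%. MHF1, a histone-fold protein gene, lies 102 bp from ADH1 and partly under the same site. The lower ones were STN1 next to PDC2 and YBR144C next to ADH5, the latter at 16.5% and 0%. In gcn5Δ, 2 neighbours were higher by that mark, MHF1 at 10.3% and YBR144C at 52.7%, and 2 lower, STN1 at 54.6% and CTT1, at 11.9% in wild type and 0% there. Next to ADH2, YME2, a gene of the mitochondrial inner membrane, was at 0% and 1.25%, and UBP15, a ubiquitin protease gene, at 0% in both. YOL085C upstream of ADH1 and YPL062W upstream of ALD6 were covered at 100% in all 3 strains, since they lie within the upstream sites described above.

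**Figure D4:**
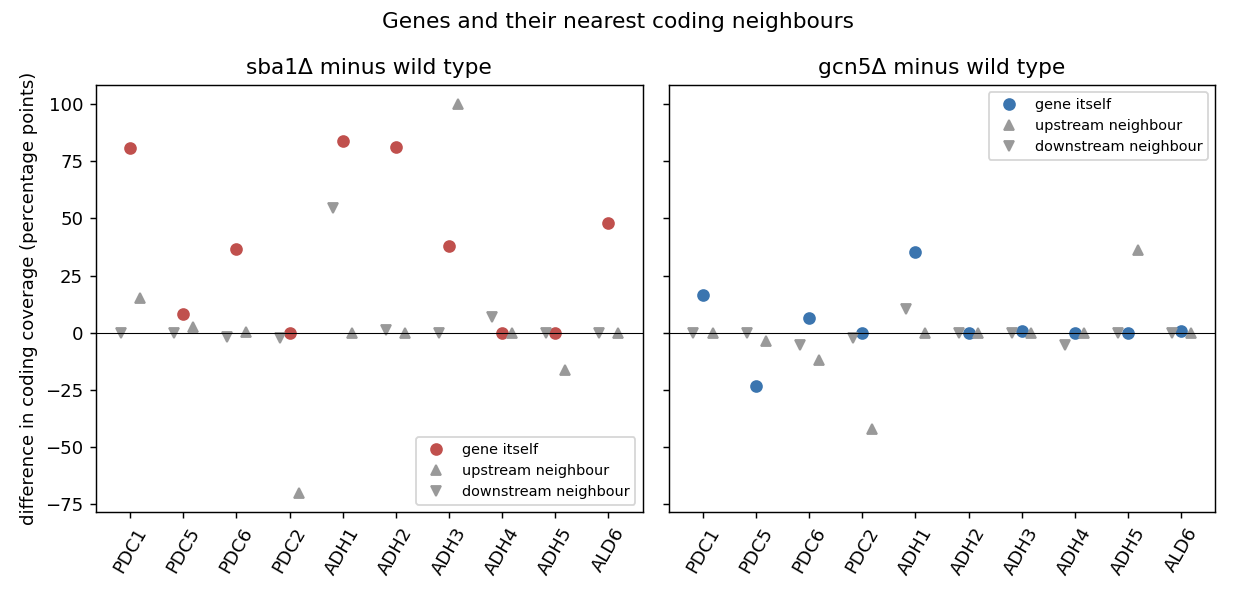
Difference in coding coverage from wild type (percentage points) for each gene (circles) and its nearest coding neighbours (triangles), in sba1Δ (left) and gcn5Δ (right). PDC1, ADH1 and ADH2 stand more than 80 points up in sba1Δ while the neighbours of ADH2 stay within 1.25 points of 0.

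Other genes of ethanol and acetate use were read for comparison, 12 in all. Their mean coding coverage was 2.70% in wild type, 26.4% in sba1Δ and 4.04% in gcn5Δ, and the median was 0% in each. By at least 10 points, 4 of the 12 were higher in sba1Δ and 0 lower, against 17.3% and 8.05% of all genes. ACS1, the acetyl-CoA synthetase gene that glucose represses, stood at 0% in wild type and 90.5% in sba1Δ. ALD4, for the mitochondrial aldehyde dehydrogenase, stood at 6.28% and 76.5%, and ACS2, for the acetyl-CoA synthetase made in glucose, at 26.1% and 85.9%. BDH1, for butanediol dehydrogenase, stood at 0% and 54.7%. The acetyl-CoA synthetase gene repressed by glucose and the one expressed in it were thus both widely covered, as were ADH2 and ADH1. In gcn5Δ ALD4 was at 38.5% and ACS2 at 8.14%, the only members of this list that differed from wild type by at least 10 points.

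Of 12 regulators of these genes, 2 were higher by at least 10 points in sba1Δ and 1 lower, near the 17.3% and 8.05% of all genes. The higher ones were THI2, a thiamine gene activator, at 29.0% in wild type and 71.5%, and SNF1, the kinase that relieves glucose repression, at 0% and 16.9%. GCR1, an activator of glycolytic genes, was lower, at 18.5% and 6.01%. In gcn5Δ only THI2 passed that mark, at 54.0%. ADR1 and CAT8, the activators of ADH2, were covered at 3.02% and 8.81% in wild type and at 0% and 8.67% in sba1Δ. The median over the 12 was 2.56% in wild type, 3.01% in sba1Δ and 0.141% in gcn5Δ.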

How the data were processed

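DNase-seq was done on nuclei of 3 yeast strains, with 1 library and 1 list of hypersensitive sites each, grouped by the genotype label. Per the submitters' processing notes, reads were handled with Bowtie 0.12.7 and sacCer3. The site caller, threshold, read length, treatment of multiply matching reads and DNase I level sequenced are steps not given in the sources used here. The score deposited by the authors was used only within a list.

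Gene positions came from the RefSeq R64 table, whose assembly is that of sacCer3, with strand read from systematic names. A site counted at an overlap of 1 bp. Coverage is the share of bases from start to stop codon under sites. Neighbouring bases are not independent, so no interval is given. A gene was called higher or lower at 10 percentage points, with no test. Coverage sums were tested on simulated data, where 200 of 200 genes gave the planted value. The members, lists and rules were chosen with earlier results of these data known. Named are all 10 members, genes beside them or under the same site, the 5 genes most like ADH2, and genes of both comparison lists past 10 points. ADR1 and CAT8 were named for their role. A planned motif search was not run, as no sequence was used here. Alternatives covered stricter lists, lists of equal size, sites set to 250 bp and other upstream windows. Software was Python 3.11.15 with pandas 2.3.3, numpy 2.4.6, matplotlib 3.10.9 and scipy 1.17.1.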

Additional observations from a re-analysis of the deposited data

Results flagged for a closer look

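In these values sba1Δ and gcn5Δ stood on opposite sides of wild type, a difference that 1 library per strain does not allow to be tested. Coding coverage of PDC5 was 8.04 points higher in sba1Δ and -23.5 points from wild type in gcn5Δ. The first is short of the mark of 10 points, and with the better-scored 50% of each list PDC5 stood at 6.32% in wild type and 0% in both deletion strains, so the directions were then no longer opposite. Its upstream bases under sites were 229 more and -38 respectively. Over the 10 genes, the number with an upstream site differed from wild type by -1 in sba1Δ and by 1 in gcn5Δ. That count was above wild type in gcn5Δ in the main setting only, and in no alternative one. It was 6 in every list for the better-scored 50% of sites, and 7 in every list once list sizes were made the same. A window of 500 bp gave 7 in wild type, 6 in sba1Δ and 7 in gcn5Δ. A background over all genes is not given for these alternative counts. The median coding coverage differed by 37.4 points and by -2.93 points, although the mean was higher than in wild type in both strains.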

How the results depend on the processing

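With all sites cut or extended to 250 bp about the midpoint, median coding coverage of the 10 genes was 0% in all 3 lists, and 0 genes had at least 50% covered in either deletion strain, which so short a site largely fixes in genes of this length. Coverage of ADH1 was then 0% in wild type, 0% in sba1Δ and 26.6% in gcn5Δ, that of PDC1 23.9%, 14.8% and 37.4%, and that of ADH2 38.0% in sba1Δ. Genes higher by 10 points in sba1Δ numbered 2 (ADH2 and PDC5) and lower ones 1 (ALD6), against 9.90% and 10.2% of all genes. The difference of sba1Δ from wild type turned to -9.16 points for PDC1 and -16.6 points for ALD6. ADH2 in sba1Δ stayed above its wild-type 0% in this setting. Keeping the better-scored 50% of sites could not move it, as its coding sites scored above 62.0% and 76.7% of the list. The setting of equal numbers could not move it either, as the sba1Δ list is the smallest and stays whole.

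Keeping only the better-scored 50% of sites, the median was 3.16% in wild type and 0.266% in gcn5Δ, PDC1 stood at 7.68% and 26.2% in these lists, and 0 genes were lower by 10 points in gcn5Δ, against 3.07% of all genes. With equal numbers of best-scored sites PDC1 was at 26.2% in gcn5Δ, which left 1 gene higher there, against 4.68% of all genes. A mark of 20 points also left 1, and the share of all genes at that mark is not given. Asking for a site midpoint upstream and outside coding sequence gave 6 genes with an upstream site in wild type, 5 in sba1Δ and 5 in gcn5Δ. No background over all genes is given for that setting. ADH1 and ADH2 coverage could not change when weaker sites were left out, as each site over their coding sequences was among the better-scored 50% of its list. No paired analysis was possible because each strain has 1 library. The upstream window ended at the neighbouring gene, the marks of 5 and 20 points and the differences per gene were alternatives chosen after seeing the data.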
